A study of Homo sapiens with 21 samples.

Results

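The list analysed here holds 52 genes that write, erase or read histone marks or move nucleosomes, out of 28395 genes in the count table. It was chosen by biological function, with earlier results of these data known: catalytic subunits and core partners of histone methyltransferases, demethylases and acetyltransferases, of Polycomb repressive complex 2, and of the SWI/SNF, CHD and INO80 remodellers. Hs578T triple-negative breast cancer cells were treated with DMSO, 0.1 µM THZ531, 3.16 µM lapatinib, 1 µM nilotinib, 0.1 µM THZ531 with lapatinib, 0.1 µM THZ531 with nilotinib, or 1 µM THZ531. RNA was taken 8 h after treatment, with 3 libraries per group and 21 libraries in all. Total counts per library ran from 97612207 to 112229052.

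CDK12 and CDK13, the targets of THZ531, are kinases of the RNA polymerase II tail and support transcription through gene bodies. Lapatinib inhibits the kinases EGFR and ERBB2, and nilotinib inhibits ABL, KIT and PDGF receptor kinases. Loss of CDK12 activity has been described as lowering the RNA of many long genes and of genes with many exons, with earlier polyadenylation inside introns. Most chromatin regulators are long genes with many exons, and several of them act in dose-sensitive complexes.

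All 52 listed genes were in the table and 51 were tested. EHMT2, an H3K9 methyltransferase, stood at 0 counts in 19 libraries and at 2 counts in the others (replicate 3 of 0.1 µM THZ531 and replicate 2 of nilotinib), so nothing is said about it. Per kilobase of canonical transcript, the DMSO level in CPM (counts relative to the TMM-scaled library total) was 54.7 ± 1.31 for KDM1A, 34.3 ± 5.59 for SMARCA4, 34.2 ± 4.80 for CHD3 and 22.7 ± 0.349 for EZH2 (mean ± SD, n = 3). EZH1 stood at 1.10 ± 0.102, KDM7A at 0.681 ± 0.0369 and CHD7 at 0.0452 ± 0.00807 on the same scale. The DMSO cells carried a mesenchymal RNA profile, with mean CPM of 6840 for VIM, 2830 for SPARC, 8060 for COL1A1, 1370 for FN1 and 531 for CDH2. Of the epithelial transcripts CDH1 stood at 0.205, EPCAM at 0.0364 and KRT5 at 0.048, but KRT8 at 20.8 and KRT18 at 83.7. Of the receptors ESR1 stood at 0.364, PGR at 0 and ERBB2 at 37.5.

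The libraries of a group were not equally alike. One axis of variation inside groups, computed from 10863 genes outside the list, held 50.2% of the within-group variance, and its gene loadings had a Spearman correlation of 0.472 with transcript length (across genes, which are not independent replicates). The listed genes are long: the median transcript is 7991 bases against 3076.5 for all tested genes, and the median span is 100815 bases against 27777. The axis score and the mean deviation of the listed genes from their group had the same sign in 21 of 21 libraries, as plotted in the figure of axis scores. The libraries farthest from their groups were DMSO replicate 2 (score 0.177), replicate 1 of 0.1 µM THZ531 (−0.132), replicate 1 of lapatinib (−0.245), replicate 1 of the lapatinib combination (−0.411), replicate 1 of nilotinib (−0.159), replicate 1 of the nilotinib combination (−0.402) and replicate 2 of 1 µM THZ531 (−0.386). Their mean member deviations were 0.162, −0.134, −0.196, −0.268, −0.146, −0.281 and −0.306 in log2 units. The source of this axis (RNA integrity, library preparation or the cells) was not tested. Results are therefore given with all libraries, and the main shifts of folds without these 7 are given beside them. Leaving out the farthest library of each group narrows the spread by selection, on an axis that moves with the members, so no p-value from that fit is given here.

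**Figure D1:**
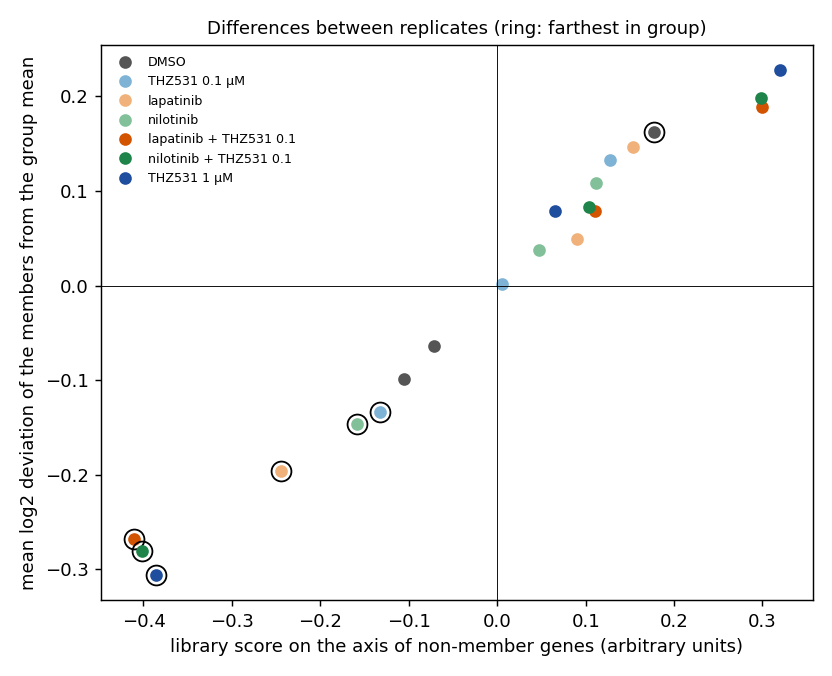
Score of each library on the within-group axis, computed from genes outside the list, against the mean log2 deviation of the listed genes from their group mean. Rings mark the library farthest from its group in each of the 7 groups.

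Chromatin regulators take part in setting which genes can be transcribed. Whether the response of their own RNA to a block of transcriptional kinases changed other genes was not tested. Each treatment was compared with the same 3 DMSO libraries with the quasi-likelihood test of edgeR, p-values being adjusted over 16036 genes by the Benjamini-Hochberg method, and a gene is called where the adjusted p is under 0.05. The p-values rest on the spread between these samples, estimated over all 7 groups and not only those compared. A ± after a log2 fold change or an interaction is its standard error from that fit. At 1 µM THZ531, 37 members were lower and 1 higher, while 36.8% of all tested genes were lower and 33.1% higher (DESeq2: 37 and 2). In the lapatinib combination 32 were lower and 8 higher (all genes 37.8% and 34.3%; DESeq2 30 and 9). In the nilotinib combination 31 were lower and 6 higher (all genes 37.3% and 33.7%; DESeq2 31 and 8). Falls beyond 1 log2 unit were called for 24, 17 and 16 members at 1 µM THZ531 and in the lapatinib and nilotinib combinations, where 18.9%, 21.3% and 20.8% of all genes passed the same bounds. Under scaling on mitochondrial mRNA the combinations had 32 and 31 such falls (38.8% and 36.8% of all genes). Rises beyond 1 were called for 2 members in the lapatinib combination and 1 in the nilotinib combination (all genes 7.9% and 6.54%). The 1 member higher at 1 µM THZ531 did not rise beyond 1, while 5.77% of all genes did.

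The small counts of rises depended on single libraries. In the lapatinib combination the 8 became 5 without DMSO replicate 1 or 3 and 4 without replicate 2 or 3 of the combination. Rises beyond 1 in that combination went from 2 to 1 without DMSO replicate 1, DMSO replicate 2 or combination replicate 3, and to 0 without DMSO replicate 3 or combination replicate 2. In the nilotinib combination the 1 rise beyond 1 became 0 without DMSO replicate 1, DMSO replicate 3 or combination replicate 3, and 3 without combination replicate 1. The 1 rise at 1 µM THZ531 became 2 without DMSO replicate 2, lapatinib replicate 1 or replicate 2 of 1 µM THZ531, and rises beyond 1 went from 0 to 1 without DMSO replicate 2.

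The listed genes lay below the typical gene in every one of the 3 strong treatments. Their median log2 fold change was −0.548 in the lapatinib combination, −0.511 in the nilotinib combination and −0.936 at 1 µM THZ531, where the medians of all tested genes were −0.0099, −0.0132 and −0.00955. Below 0 stood 38, 37 and 46 of the 51. Without the 7 far libraries the members' medians were −0.408, −0.329 and −0.692, with 34, 34 and 42 below 0. These folds rest on TMM scaling. Mitochondrial mRNA made up 1.25% of counts in DMSO on average, 1.60% and 1.56% in the lapatinib and nilotinib combinations and 1.54% at 1 µM THZ531, and scaling on the 13 mitochondrial mRNAs instead moved the median of all genes to −0.69, −0.633 and −0.553. Measured from the median of all genes, the members' median was −0.538, −0.498 and −0.927 by TMM and −0.531, −0.502 and −0.938 by mitochondrial scaling. Under that scaling 42, 42 and 48 members were lower, and 1, 1 and none higher, while 58.4%, 55.9% and 52.5% of all genes were lower and 5.3%, 4.83% and 4.35% higher. The heat map of all tested members shows the split between a majority that fell and a few that rose.

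**Figure D2:**
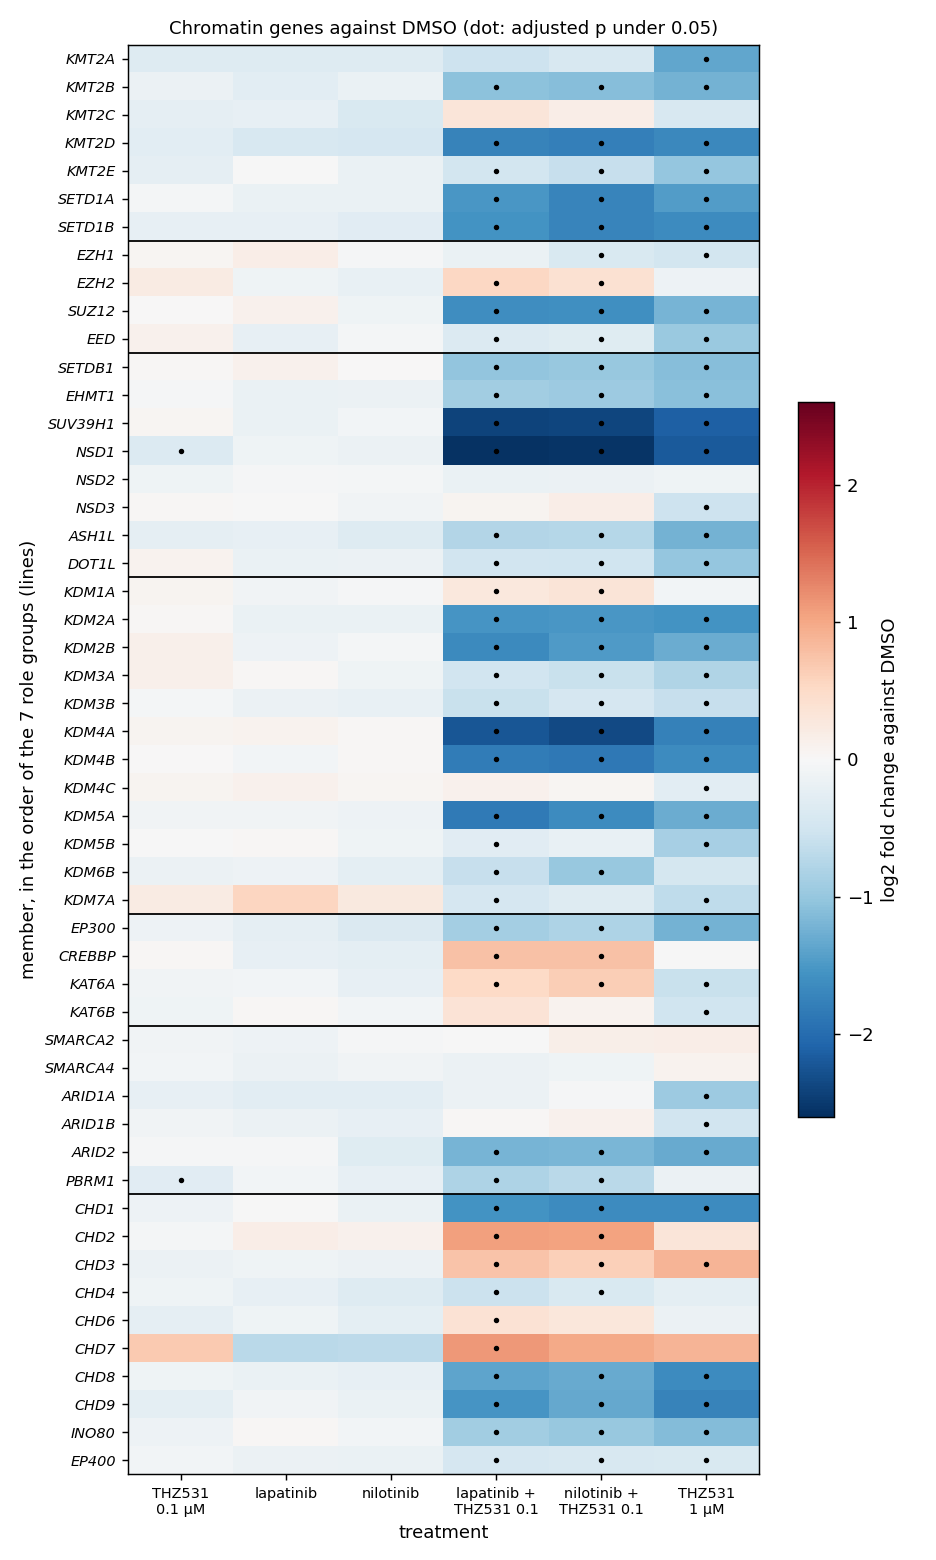
Log2 fold change against DMSO of the 51 tested members in the 6 treatments, grouped by role. A dot marks an adjusted p under 0.05.

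H3K4 methyltransferases of the KMT2 family mark promoters and enhancers, and KMT2C and KMT2D are the paralogous pair that puts monomethylation on enhancers. The 7 members listed under this role are KMT2A to KMT2E, SETD1A and SETD1B, grouped by family and not by measured activity. Of these, 5, 5 and 6 were lower and none higher in the lapatinib combination, the nilotinib combination and 1 µM THZ531. Their median log2 fold changes were −1.06, −1.1 and −1.35. KMT2D CPM were 51.1, 86.6 and 52.6 in DMSO, 13.8, 21.2 and 22.4 in the lapatinib combination, 13.5, 19.99 and 22.1 in the nilotinib combination and 24.4, 15.2 and 19.8 at 1 µM THZ531. Every library of the 3 treatments lay below every DMSO library, with log2 fold changes of −1.73 ± 0.241, −1.77 ± 0.242 and −1.68 ± 0.241 (edgeR adjusted p = 2.29e-06, 1.79e-06 and 3.76e-06). KMT2D stood, without the 7 far libraries, at −1.25, −1.31 and −1.24. Its partner KMT2C read 30.9, 45.2 and 30.5 in DMSO, 28.8, 54.9 and 48.4 in the lapatinib combination, 25.1, 43.9 and 50.6 in the nilotinib combination and 35.4, 17.2 and 26.99 at 1 µM THZ531. These ranges overlap DMSO, and no change of KMT2C was called (edgeR adjusted p = 0.317, 0.597 and 0.179). Leaving out replicate 1 of 1 µM THZ531 turned KMT2C there to a call at −0.69 (edgeR adjusted p = 0.0482), and without the 7 far libraries it stood at 0.75 and 0.62 in the combinations. With library size alone KMT2C was called lower at 1 µM THZ531 (−0.68, 0.0385), as it was under mitochondrial scaling (−0.98, 0.000173).

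Polycomb repressive complex 2 trimethylates H3K27 and needs SUZ12 and EED around its catalytic subunit, EZH2 or EZH1. SUZ12 CPM were 77.3, 64.7 and 67.9 in DMSO, 24.4, 23.4 and 20.9 in the lapatinib combination, 22.3, 22.2 and 25.4 in the nilotinib combination and 33.3, 28.3 and 29.5 at 1 µM THZ531. All 9 treated libraries lay far below DMSO, and the log2 fold changes were −1.61 ± 0.0888, −1.59 ± 0.0887 and −1.20 ± 0.0877 (edgeR adjusted p = 2.82e-12, 3.81e-12 and 2.89e-10). EZH2, the main methyltransferase of the complex, read 61.0, 60.4 and 59.2 in DMSO, 80.9, 92.6 and 88.5 in the lapatinib combination, 72.2, 79.9 and 84.7 in the nilotinib combination and 59.5, 42.8 and 61.3 at 1 µM THZ531. The combinations lay above every DMSO library and 1 µM THZ531 overlapped DMSO. EZH2 rose by 0.54 ± 0.108 and 0.39 ± 0.108 under TMM scaling (edgeR adjusted p = 0.000168 and 0.00305), but stood at −0.15 and −0.23 under mitochondrial scaling, and was not called with library size alone (0.21 and 0.09). With 1 µM THZ531 its fold was −0.14 ± 0.108 and was not called (edgeR adjusted p = 0.248), but it was lower with library size alone (−0.40, 0.00329) and mitochondrial scaling (−0.69, 0.000226). Across the role, 2, 3 and 3 of 4 members were lower and 1, 1 and none higher, with medians of −0.268, −0.349 and −0.713.

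The H3K9, H3K36 and H3K79 methyltransferases include the NSD family, which dimethylates H3K36, and SUV39H1, which trimethylates H3K9 in heterochromatin. Of the 8 tested, 6, 6 and 7 were lower and none higher, with medians of −0.83, −0.843 and −1.09. NSD1 CPM were 105, 124 and 104 in DMSO, 17.4, 19.4 and 19.4 in the lapatinib combination, 17.3, 19.9 and 19.7 in the nilotinib combination and 26.4, 23.8 and 23.2 at 1 µM THZ531. No treated library came near DMSO, and NSD1 had the largest fall of all members, −2.56 ± 0.105, −2.54 ± 0.105 and −2.18 ± 0.103 (edgeR adjusted p = 3.62e-14, 4.52e-14 and 6.49e-13). SUV39H1, singled out after its values were seen, read 21.1, 20.9 and 19.0 in DMSO, 3.55, 3.82 and 4.03 in the lapatinib combination, 3.36, 4.59 and 3.71 in the nilotinib combination and 4.57, 3.99 and 5.34 at 1 µM THZ531. Its groups were as clearly apart from DMSO as those of NSD1, at −2.42 ± 0.108, −2.39 ± 0.108 and −2.13 ± 0.106 (edgeR adjusted p = 1.29e-13, 1.68e-13 and 1.27e-12). NSD3, the member of this role with the highest mean fold, read 91.7, 98.1 and 83.6 in DMSO, 80.3, 108 and 96.6 in the lapatinib combination, 84.3, 103 and 119 in the nilotinib combination and 73.3, 49.2 and 66.3 at 1 µM THZ531. Only the last group lay below DMSO without overlap (−0.53 ± 0.14, edgeR adjusted p = 0.00209), and the combinations were not called (0.06 and 0.17, edgeR adjusted p = 0.703 and 0.295). Without the 7 far libraries NSD3 stood at 0.22 and 0.34 in the combinations, and under mitochondrial scaling it was called lower in both (−0.62 and −0.46, edgeR adjusted p = 0.000495 and 0.00814). With upper-quartile scaling NSD3 was called higher in the nilotinib combination (0.30, edgeR adjusted p = 0.042). NSD2, picked after its values were seen, read 183, 204 and 182 in DMSO and 153, 172 and 181 in the lapatinib combination, and it was called in none of the 3 treatments, though NSD2 was lower in all 3 with library size alone (−0.50, −0.45 and −0.36) and mitochondrial scaling (−0.85, −0.77 and −0.65).

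**Figure D3:**
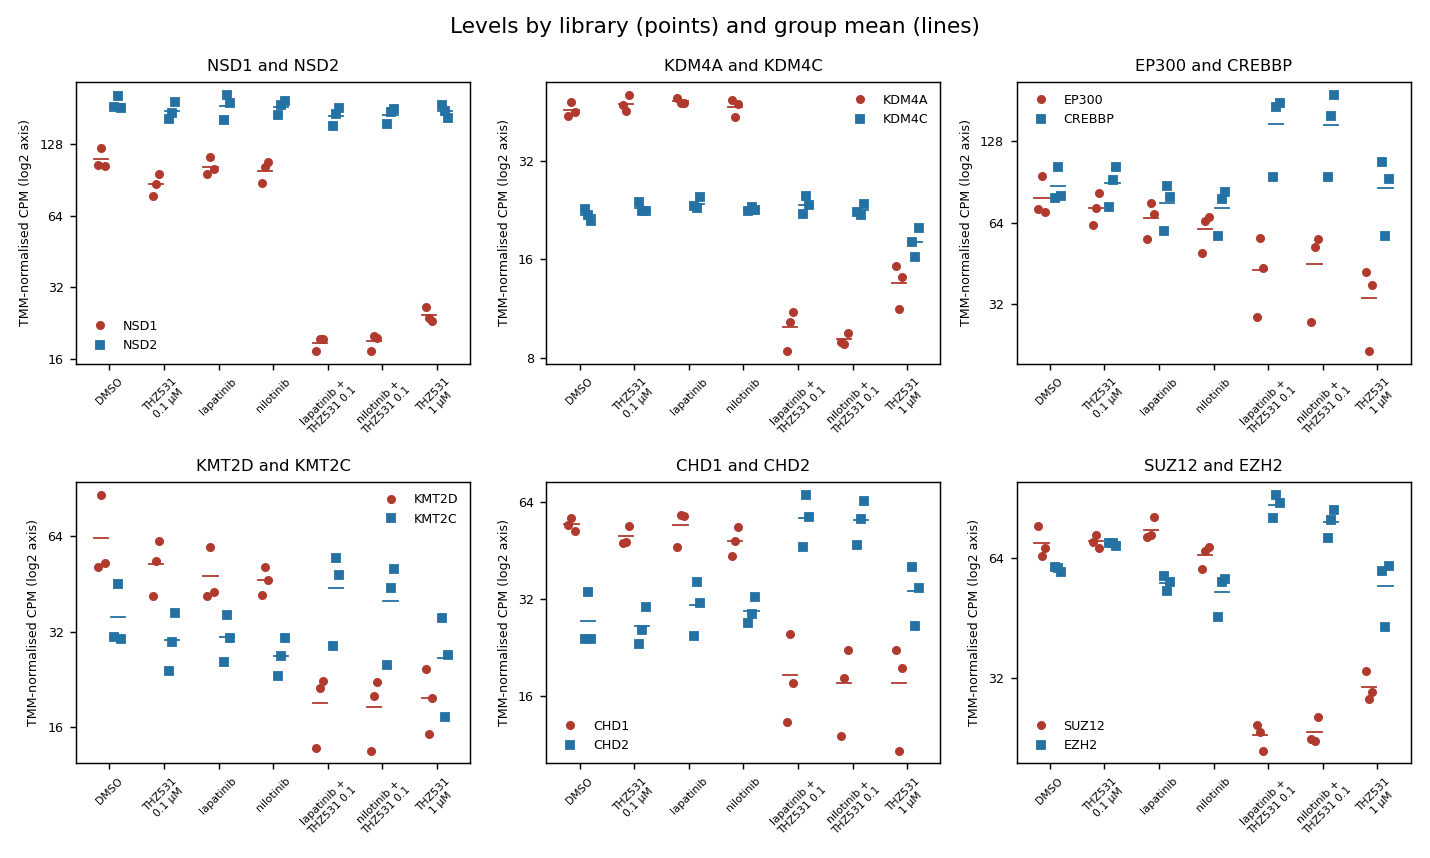
TMM-normalised CPM of 6 gene pairs in all 21 libraries, on a log2 axis. Points are libraries and lines are group means.

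Histone demethylases remove methyl groups through a flavin enzyme, KDM1A, or through iron-dependent enzymes such as KDM4A, which acts on trimethylated H3K9 and H3K36. Of 12 demethylases, 10, 8 and 10 were lower and 1, 1 and none higher, and the medians were −0.595, −0.785 and −0.83. KDM4A CPM were 44.1, 48.6 and 45.3 in DMSO, 8.39, 10.3 and 11.1 in the lapatinib combination, 8.93, 8.83 and 9.50 in the nilotinib combination and 15.3, 11.3 and 14.1 at 1 µM THZ531. All treated libraries lay below DMSO and the combinations lay below 1 µM THZ531, with log2 fold changes of −2.22 ± 0.105, −2.34 ± 0.106 and −1.76 ± 0.103 (edgeR adjusted p = 3.27e-13, 1.75e-13 and 1.26e-11). KDM1A, which removes mono- and dimethylation from H3K4, read 167, 166 and 173 in DMSO, 185, 214 and 210 in the lapatinib combination, 199, 218 and 220 in the nilotinib combination and 168, 146 and 166 at 1 µM THZ531. Both combinations were higher than DMSO without overlap, while 1 µM THZ531 overlapped it. KDM1A rose by 0.26 ± 0.0661 and 0.33 ± 0.0661 under TMM scaling (edgeR adjusted p = 0.00136 and 0.000159), but under mitochondrial scaling it was called lower in the lapatinib combination (−0.42, 0.00546) and stood at −0.29 in the nilotinib combination. With library size alone KDM1A stood at −0.06 and 0.03. No change of KDM1A was called at 1 µM THZ531 (−0.08 ± 0.0661, edgeR adjusted p = 0.313), but it was lower there with library size alone (−0.34, 0.000214) and mitochondrial scaling (−0.62, 0.000109).

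EP300 and CREBBP are paralogous acetyltransferases that acetylate H3K27 at enhancers, and KAT6A and KAT6B acetylate H3 as the catalytic subunits of a MYST complex. In this role 1, 1 and 3 of 4 members were lower and 2, 2 and none higher, with medians of 0.436, 0.366 and −0.551. EP300 CPM were 71.7, 95.1 and 70.2 in DMSO, 28.7, 56.3 and 43.4 in the lapatinib combination, 27.4, 52.1 and 55.7 in the nilotinib combination and 42.0, 21.5 and 37.8 at 1 µM THZ531. Each treated library was below each DMSO library, and EP300 fell by 0.88 ± 0.265, 0.81 ± 0.265 and 1.23 ± 0.267 (edgeR adjusted p = 0.00559, 0.0101 and 0.000408). In the nilotinib combination the EP300 call was lost without DMSO replicate 2 (−0.66, edgeR adjusted p = 0.0529) or combination replicate 1 (−0.55, edgeR adjusted p = 0.0652). EP300 stood, without the 7 far libraries, at −0.51, −0.40 and −0.84 in the 3 treatments. CREBBP read 78.96, 103 and 80.4 in DMSO, 94.8, 172 and 178 in the lapatinib combination, 94.6, 159 and 190 in the nilotinib combination and 108, 57.3 and 93.3 at 1 µM THZ531. Replicate 1 of each combination overlapped DMSO and the other libraries lay above it, so the rises of 0.77 ± 0.266 and 0.76 ± 0.266 (edgeR adjusted p = 0.0144 and 0.0153) come with wide spread. Under mitochondrial scaling CREBBP stood at 0.07 and 0.13 in the combinations (edgeR adjusted p = 0.787 and 0.632) and with library size alone at 0.44 and 0.46 (0.151 and 0.136), so its rise is called only on some scales.

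The CREBBP call of the lapatinib combination was lost without DMSO replicate 1 (0.70, edgeR adjusted p = 0.0524) and without combination replicate 2 (0.64, 0.0592) or 3 (0.61, 0.0715). In the nilotinib combination it was lost without DMSO replicate 1 (0.69, edgeR adjusted p = 0.0544), DMSO replicate 3 (0.71, 0.0505) or combination replicate 3 (0.54, 0.0977). Without the 7 far libraries CREBBP stood at 1.13 and 1.13 in the combinations, and at 0.33 in place of −0.02 at 1 µM THZ531, where mitochondrial scaling gave a call in the other direction (−0.57, edgeR adjusted p = 0.0215). KAT6A, singled out after its values were seen, read 102, 116 and 92.6 in DMSO, 110, 178 and 158 in the lapatinib combination, 119, 171 and 195 in the nilotinib combination and 84.9, 40.8 and 80.3 at 1 µM THZ531. The lapatinib combination overlapped DMSO, the nilotinib combination lay above it and 1 µM THZ531 lay below it. In the lapatinib combination KAT6A was called at 0.53 ± 0.22 under TMM scaling (edgeR adjusted p = 0.0386) but stood at −0.16 under mitochondrial scaling. That call was lost with library size alone (0.20, 0.437) and without DMSO replicate 1 (0.51, edgeR adjusted p = 0.0842), DMSO replicate 3 (0.45, 0.121), or combination replicate 2 (0.37, 0.174) or 3 (0.48, 0.0967). The nilotinib value, 0.65 ± 0.221 (edgeR adjusted p = 0.0134), was not called without DMSO replicate 3 (0.57, 0.0531) or combination replicate 3 (0.49, 0.0773), nor with library size alone (0.34, 0.18) or mitochondrial scaling (0.02, 0.953). KAT6A fell at 1 µM THZ531 by 0.59 ± 0.221 (edgeR adjusted p = 0.0232), a call lost without DMSO replicate 2 (−0.50, 0.0826) or treated replicate 2 (−0.32, 0.141), or with upper-quartile scaling (−0.40, 0.0963). KAT6A stood, without the 7 far libraries, at 0.79, 0.91 and −0.24 in the 3 treatments.

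SWI/SNF complexes slide and eject nucleosomes with the ATPases SMARCA2 or SMARCA4, and ARID2 and PBRM1 define the PBAF form. This role had the medians nearest 0 with all libraries, with 2, 2 and 3 of 6 members lower, none higher, and values of −0.147, −0.0727 and −0.326. ARID2 CPM were 38.8, 40.7 and 34.8 in DMSO, 13.2, 19.6 and 16.7 in the lapatinib combination, 11.9, 17.8 and 20.3 in the nilotinib combination and 18.3, 9.93 and 17.8 at 1 µM THZ531. No treated library reached the DMSO range, and ARID2 fell by 1.21 ± 0.197, 1.19 ± 0.196 and 1.31 ± 0.197 (edgeR adjusted p = 1.57e-05, 1.88e-05 and 6.62e-06). SMARCA2 read 65.8, 79.3 and 65.9 in DMSO, 65.2, 71.3 and 73.4 in the lapatinib combination, 72.6, 78.7 and 84.5 in the nilotinib combination and 85.4, 77.1 and 76.2 at 1 µM THZ531. All of these overlap DMSO and none was called (−0.01, 0.16 and 0.18; edgeR adjusted p = 0.955, 0.208 and 0.165). SMARCA2 was called higher in the nilotinib combination and at 1 µM THZ531 with upper-quartile scaling (edgeR adjusted p = 0.0197 and 0.00437), but lower in both under mitochondrial scaling (−0.46 and −0.37), and it stood at 0.30 and 0.29 without the 7 far libraries. Leaving out the 7 far libraries put ARID1A at 0.26 and 0.39 and ARID1B at 0.32 and 0.43 in the lapatinib and nilotinib combinations, and SMARCA4 at 0.23 at 1 µM THZ531. Under mitochondrial scaling these were called lower: ARID1A at −0.83 and −0.66 (edgeR adjusted p = 0.00117 and 0.00927), ARID1B at −0.65 and −0.51 (0.00142 and 0.012) and SMARCA4 at −0.44 (0.0186). In the lapatinib and nilotinib combinations SMARCA4 was not called under TMM scaling. There mitochondrial scaling called it lower (−0.83 and −0.74, edgeR adjusted p = 2.7e-05 and 0.000138). So did library size alone (−0.47 and −0.42, 0.0153 and 0.0308). These settings also called SMARCA2 lower in the lapatinib combination (−0.69 and −0.33, edgeR adjusted p = 5.52e-05 and 0.0135).

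CHD remodellers use a double chromodomain to bind histone tails, with CHD1 and CHD2 acting on transcribed genes and CHD3 and CHD4 serving as alternative ATPases of the NuRD complex. Among the 10 CHD and INO80 members, 6, 6 and 5 were lower and 4, 2 and 1 higher, with medians of −0.494, −0.399 and −0.333. CHD1 CPM were 54.4, 57.5 and 52.2 in DMSO, 13.3, 24.9 and 17.6 in the lapatinib combination, 12.1, 18.2 and 22.3 in the nilotinib combination and 22.3, 10.8 and 19.5 at 1 µM THZ531. Every treated library was below DMSO, at −1.56 ± 0.237, −1.64 ± 0.237 and −1.64 ± 0.237 (edgeR adjusted p = 6.84e-06, 3.81e-06 and 4.17e-06). CHD2, singled out after its values were seen, read 24.2, 33.7 and 24.1 in DMSO, 46.7, 67.6 and 57.7 in the lapatinib combination, 47.3, 57.0 and 64.9 in the nilotinib combination and 40.5, 26.5 and 34.6 at 1 µM THZ531. The combinations lay above DMSO and 1 µM THZ531 overlapped it. CHD2 rose by 1.07 ± 0.18 and 1.05 ± 0.18 under TMM scaling (edgeR adjusted p = 2.44e-05 and 3.3e-05). Under mitochondrial scaling or with library size alone, neither CHD2 rise was called beyond 1, as 0 members were in either combination. The lapatinib call of CHD2 itself was kept in all 32 other settings. CHD2 was not called at 1 µM THZ531 (0.31 ± 0.179, edgeR adjusted p = 0.131), but it was without DMSO replicate 2 (0.49, 0.0309) or treated replicate 2 (0.46, 0.0342), and with upper-quartile scaling (0.51, 0.0119). It stood at 0.63 there without the 7 far libraries.

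CHD3, the only member higher in all 3 strong treatments and also singled out after its values were seen, read 229, 293 and 236 in DMSO, 319, 451 and 493 in the lapatinib combination, 302, 415 and 447 in the nilotinib combination and 521, 457 and 421 at 1 µM THZ531. Each treated library was above each DMSO library. CHD3 rose by 0.74 ± 0.172, 0.62 ± 0.171 and 0.88 ± 0.172 under TMM scaling (edgeR adjusted p = 0.000715, 0.00319 and 0.000131), and stood at 0.05, −0.0045 and 0.34 under mitochondrial scaling, the sign in the nilotinib combination thus turning and no call being left (0.809, 0.983 and 0.0615). With library size alone the nilotinib call was lost (0.32, 0.112). CHD7, an enhancer-bound remodeller that was nearly silent here, read 0.621, 0.518 and 0.434 in DMSO, 0.601, 1.52 and 1.34 in the lapatinib combination, 0.519, 1.22 and 1.39 in the nilotinib combination and 1.21, 0.754 and 0.931 at 1 µM THZ531. The combinations overlap DMSO and 1 µM THZ531 lies above it. Its call in the lapatinib combination (1.13 ± 0.447, edgeR adjusted p = 0.0289) was lost without DMSO replicate 2 (0.0644), DMSO replicate 3 (0.0888), or combination replicate 2 (0.122) or 3 (0.0829), and with library size alone (0.118) or mitochondrial scaling (0.43, 0.315), while the fold was 1.43 without the 7 far libraries. In the nilotinib combination CHD7 was not called (0.99, edgeR adjusted p = 0.0557), but it was without lapatinib replicate 1 (0.0196) or 2 (0.0486), lapatinib combination replicate 1 (0.041) or nilotinib combination replicate 1 (1.31, 0.0146). Other settings called it there too: DESeq2 size factors (0.0428), upper-quartile scaling (0.0277), no filter (0.0458), DESeq2 (0.0232), the groups compared alone (0.0225) and counts multiplied by 0.5 (0.0423). Its 0.88 at 1 µM THZ531 (edgeR adjusted p = 0.0884) was called without lapatinib replicate 1 (0.037), with upper-quartile scaling (0.035), with the groups compared alone (0.00707) and by DESeq2 (0.0481). Without the 7 far libraries its folds in the nilotinib combination and at 1 µM THZ531 were 1.30 and 1.01. CHD6 had the smallest called rise of this role, 0.37 in the lapatinib combination under TMM scaling (edgeR adjusted p = 0.0394), and stood at −0.31 under mitochondrial scaling. That call was lost without DMSO replicate 1 (0.111) or 3 (0.163) or combination replicate 2 (0.164) or 3 (0.111), and with library size alone (0.04, 0.82).

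Several members are paralogues that serve the same reaction, and a ratio of 2 genes inside one library does not depend on the scaling between libraries. For 17 of 18 listed pairs the log2 ratio was taken in each library, the pair EHMT1 and EHMT2 being left out. Ratios did not overlap DMSO for 11 pairs in the lapatinib combination, 13 in the nilotinib combination and 10 at 1 µM THZ531, while 69.3%, 67.9% and 66% of all gene pairs did the same. With a mean difference beyond 1 as well, the counts were 9, 8 and 8 (all pairs 47.6%, 45.8% and 42.7%). With 3 libraries against 3, the smallest p of the exact two-sided permutation test is 0.1, the value for every pair without overlap. The log2 ratio of EP300 to CREBBP was −0.139, −0.108 and −0.196 in DMSO, −1.72, −1.61 and −2.04 in the lapatinib combination, −1.79, −1.61 and −1.77 in the nilotinib combination and −1.36, −1.42 and −1.30 at 1 µM THZ531. The spread of EP300 and CREBBP between replicates largely cancels in this ratio, and the mean differences from DMSO were −1.64, −1.58 and −1.21. For CHD1 to CHD2 the ratio was 1.17, 0.77 and 1.11 in DMSO, −1.81, −1.44 and −1.71 in the lapatinib combination, −1.97, −1.65 and −1.54 in the nilotinib combination and −0.859, −1.29 and −0.826 at 1 µM THZ531. This ratio, in reads and not per kilobase, lay above 0 in DMSO and below 0 in all 9 treated libraries.

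Ratios of other listed pairs also lay apart from DMSO. As counted above, listed pairs did so about as often as all gene pairs. The log2 ratio of NSD1 to NSD2 was −0.798, −0.723 and −0.811 in DMSO, −3.14, −3.14 and −3.22 in the lapatinib combination, −3.17, −3.13 and −3.19 in the nilotinib combination and −2.83, −2.88 and −2.84 at 1 µM THZ531. Replicates of this ratio lay within a narrow band in each group, and the mean differences were −2.39, −2.39 and −2.07. KDM4A to KDM4C differed from DMSO by −2.33, −2.39 and −1.49, KMT2C to KMT2D by 2.00, 1.89 and 1.20, and CHD3 to CHD4 by 1.28, 0.998 and 1.14, all without overlap. KDM5A to KDM5B, demethylases of H3K4, read −1.54, −1.48 and −1.53 in DMSO, −2.91, −3.06 and −3.18 in the lapatinib combination, −2.76, −3.02 and −3.12 in the nilotinib combination and −1.95, −1.52 and −2.26 at 1 µM THZ531. Of these 3 treatments the combinations were apart from DMSO, by −1.54 and −1.45, and 1 µM THZ531 overlapped it. Lapatinib alone was also apart, by −0.121. CHD7 to CHD8 moved most in the lapatinib combination among pairs of this family after CHD1 to CHD2, by 2.44, but CHD7 carried few reads. The plot of ratios by pair shows all of these except CHD7 to CHD8.

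**Figure D4:**
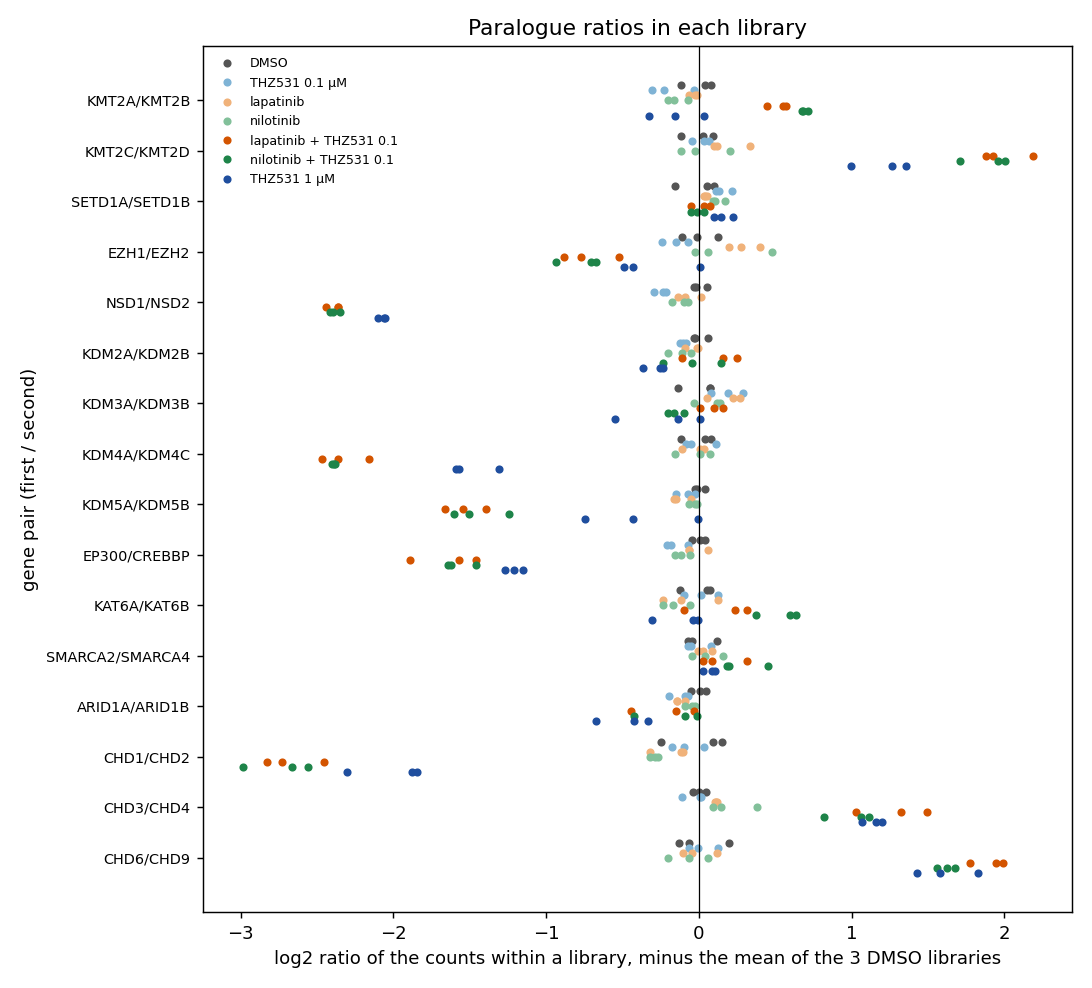
Log2 ratio of 16 paralogue pairs in each library, minus the mean of the 3 DMSO libraries. Each point is a library.

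EP300 with CREBBP and CHD1 with CHD2, 2 of the pairs whose ratio moved in all 3 strong treatments, are shown here with the 250 bases before one annotated transcription start (RefSeq, GRCh38.p14), picked after their values were seen. EP300 lies at chr22:41092342-41092591 on the plus strand, CREBBP at chr16:3880714-3880963 on the minus strand (the most upstream of its starts), CHD1 at chr5:98929008-98929257 on the minus strand and CHD2 at chr15:92900074-92900323 on the plus strand. Each is printed 5′ to 3′ on the gene's strand, with the GC box GGGCGG and its reverse complement CCGCCC in capitals. On both strands together the box occurs 0 times before EP300, 3 times before CREBBP, 4 times before CHD1 and 0 times before CHD2. Their GC contents are 76.8%, 72.4%, 70.8% and 54.8%. At least 1 such box lies in 42.6% of all 35116 promoters of this length and in 70.0% of the 70 promoters of 45 members, so a match is a description of the sequence only.
EP300: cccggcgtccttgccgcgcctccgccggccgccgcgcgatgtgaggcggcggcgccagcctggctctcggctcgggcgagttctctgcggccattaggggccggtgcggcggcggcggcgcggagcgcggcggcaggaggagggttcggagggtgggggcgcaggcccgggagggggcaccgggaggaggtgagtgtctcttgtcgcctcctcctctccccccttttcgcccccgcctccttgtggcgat
CREBBP: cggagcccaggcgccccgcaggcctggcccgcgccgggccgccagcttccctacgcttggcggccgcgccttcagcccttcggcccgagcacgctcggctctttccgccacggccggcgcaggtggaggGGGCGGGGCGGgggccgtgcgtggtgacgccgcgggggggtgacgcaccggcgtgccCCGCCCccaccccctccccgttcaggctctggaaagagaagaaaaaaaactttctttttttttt
CHD1: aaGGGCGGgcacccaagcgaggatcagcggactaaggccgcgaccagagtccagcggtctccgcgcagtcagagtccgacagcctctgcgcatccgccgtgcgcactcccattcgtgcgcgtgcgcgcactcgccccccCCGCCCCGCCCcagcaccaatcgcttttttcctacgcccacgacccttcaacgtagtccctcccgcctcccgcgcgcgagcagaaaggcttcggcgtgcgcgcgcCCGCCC
CHD2: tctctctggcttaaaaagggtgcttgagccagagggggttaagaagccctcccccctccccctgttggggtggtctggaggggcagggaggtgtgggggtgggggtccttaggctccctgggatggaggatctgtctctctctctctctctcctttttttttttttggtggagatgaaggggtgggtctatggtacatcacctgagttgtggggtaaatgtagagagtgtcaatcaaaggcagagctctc

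As a group, member promoters had a median GC content of 68.8% and 23.5 CpG sites, where all promoters had 58.0% and 11. The TATA sequence TATAAA was in 1.43% of member promoters and 10.7% of all promoters, the E-box CACGTG in 12.9% and 6.34%, and CCAAT in 31.4% and 32.0%. The ETS sequence CCGGAAG was in 10.0% and 8.52%, and the CRE sequence TGACGTCA was in 0% of the 70 and 1.65% of all. Among the 51 members, the Spearman correlation of log2 fold change with gene span was 0.253, 0.278 and 0.167 in the lapatinib combination, the nilotinib combination and 1 µM THZ531, while across all tested genes it was −0.191, −0.148 and −0.158. For transcript length the members gave 0.115, 0.124 and −0.0529 against −0.302, −0.272 and −0.294, so a sign opposite to all genes was not seen at 1 µM THZ531 on that measure. For the number of exons in the canonical transcript the members gave 0.113, 0.134 and 0.195 against −0.0876, −0.0512 and −0.0323. For mean log2 CPM the members gave 0.307, 0.37 and 0.322 against 0.0687, 0.0923 and 0.03. For GC content over the gene span, introns included, they gave −0.332, −0.367 and −0.164 against 0.121, 0.102 and 0.116. For the polyadenylation signal AATAAA per kilobase of that span they gave 0.256, 0.275 and 0.0628 against −0.0675, −0.0596 and −0.0623. These are correlations across genes, which are not independent replicates, and no p-value is given.

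Lapatinib and nilotinib alone act on receptor and ABL-family kinases, and 0.1 µM THZ531 is the lower dose of the CDK12 and CDK13 inhibitor. Few or no members were called with any of these. The lower dose of THZ531 left 2 members lower and 0 higher, while 4.31% and 1.78% of all genes were called (edgeR 2 at an unadjusted p under 0.05; DESeq2 2 and 0). With lapatinib edgeR called 0 lower and 0 higher (all genes 0.0561% and 0.256%), with 1 at an unadjusted p under 0.05 and DESeq2 counts of 0 and 1. With nilotinib edgeR called 0 and 0 (all genes 0.0998% and 0.243%), with 2 at an unadjusted p under 0.05 and DESeq2 counts of 0 and 0. Median member folds were −0.0717, −0.117 and −0.163, and 33, 40 and 45 of 51 members stood below 0. That tilt was not seen without the 7 far libraries, where the medians were 0.0721, 0.0804 and 0.000608, with 11, 9 and 25 members below 0. All 3 treatments are set against the same DMSO libraries. No member was called by edgeR beyond 1 log2 unit, where the shares of all genes lower and higher were 0.742% and 0.143% at 0.1 µM THZ531, 0.0125% and 0.0374% with lapatinib and 0.0125% and 0.0249% with nilotinib. Paralogue ratios did not overlap DMSO for 7, 5 and 6 of 17 pairs (all pairs 29.7%, 15.1% and 19.6%). For a mean difference beyond 1 the counts were 0, 0 and 0 of the 17 (all pairs 4.9%, 1.88% and 2.28%). These last are counts of ranges without overlap, not calls of edgeR or DESeq2.

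NSD1 and PBRM1 were the members called at 0.1 µM THZ531. NSD1 read 105, 124 and 104 in DMSO against 77.5, 86.6 and 96.0, without overlap, a fall of 0.35 ± 0.0983 (edgeR adjusted p = 0.0382). The NSD1 call was lost without DMSO replicate 1 (−0.39, edgeR adjusted p = 0.06) or 2 (−0.27, 0.204). So it was without treated replicate 1 (−0.28, 0.201) or 2 (−0.35, 0.116). It was also lost without lapatinib replicate 3 (−0.35, 0.0516) or nilotinib replicate 2 (−0.35, 0.0514). The NSD1 fold was −0.20 without the 7 far libraries. PBRM1, a subunit of PBAF, read 72.6, 72.7 and 65.7 in DMSO against 56.8, 56.4 and 58.4, also without overlap (−0.30 ± 0.0708, edgeR adjusted p = 0.0145). That call was lost without DMSO replicate 1 (−0.27, 0.0684) or 2 (−0.27, 0.0687) or treated replicate 1 (−0.29, 0.0622) or 2 (−0.29, 0.0668). Under mitochondrial scaling neither NSD1 (−0.34, edgeR adjusted p = 0.276) nor PBRM1 (−0.30, 0.398) was called, though both folds stayed near those under TMM scaling. The count of 2 accordingly became 0 without any of DMSO replicates 1 and 2 and treated replicates 1 and 2, and 1 without lapatinib replicate 3 or nilotinib replicate 2. KDM7A, a demethylase of H3K9 and H3K27 picked after its values were seen, read 6.67, 6.08 and 6.08 in DMSO and 9.99, 8.62 and 9.15 with lapatinib, higher without overlap. edgeR did not call it (0.56, adjusted p = 0.17), DESeq2 did (adjusted p = 0.0381), and edgeR did without nilotinib replicate 1 (adjusted p = 0.037), where the lapatinib count went from 0 to 1, and with the groups compared alone (0.0159). Its fold was 0.49 without the 7 far libraries.

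The combinations pair the lower dose of THZ531 with drugs that, given alone, led to no edgeR call among the members. An absence of calls is not a test of no change. The interaction asks whether the combination differs from the sum, in log2 units, of the 2 single treatments. It was called lower for 22 and higher for 6 members with lapatinib (all genes 32% and 28.2%; DESeq2 22 and 7) and for 22 and 7 with nilotinib (all genes 31.2% and 25.6%; DESeq2 22 and 7). Under mitochondrial scaling 35 were lower and none higher with lapatinib (all genes 44.4% and 3.7%). With nilotinib 34 were lower and none higher under that scaling (all genes 40.1% and 3.7%). With library size alone 31 were lower and 2 higher with lapatinib (all genes 41.1% and 14.9%). For nilotinib the counts were then 27 and 2 (all genes 38.4% and 12.8%). The 2 interactions share the DMSO and 0.1 µM THZ531 libraries. KDM4A read 47.6, 45.5 and 51.1 at 0.1 µM THZ531, 50.1, 48.4 and 48.1 with lapatinib and 49.4, 43.7 and 47.9 with nilotinib. All of those lay near the DMSO values of 44.1, 48.6 and 45.3, while the combinations read 8.39 to 11.1. Its interactions were −2.37 ± 0.144 and −2.43 ± 0.144 (edgeR adjusted p = 4.39e-11 and 3.51e-11), the largest of all members together with SUV39H1 at −2.31 and −2.38. NSD1 had −2.11 ± 0.141 and −2.03 ± 0.141. On the other side CHD3 had 0.99 ± 0.242 and 0.91 ± 0.242 (edgeR adjusted p = 0.00149 and 0.00334), neither called under mitochondrial scaling (0.43 and 0.43, 0.109 and 0.113).

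KDM7A, which was numerically higher with lapatinib alone, had interactions of −1.22 and −0.81 (edgeR adjusted p = 6.46e-05 and 0.00315), and the lapatinib combination read 4.55, 5.07 and 4.32. CREBBP had 0.93 ± 0.375 and 0.98 ± 0.375 (edgeR adjusted p = 0.0379 and 0.0311), not called with library size alone (0.161 and 0.113) or mitochondrial scaling (0.355 and 0.209). The lapatinib call of CREBBP was lost without DMSO replicate 2 (0.80, edgeR adjusted p = 0.0936). So it was without replicate 1 (0.80, 0.0934) or 2 (0.95, 0.0557) of 0.1 µM THZ531. It was also lost without lapatinib replicate 1 (0.78, 0.0956) or 3 (0.97, 0.0519). Leaving out combination replicate 2 (0.81, 0.0883) or 3 (0.78, 0.102) lost it as well. The nilotinib call was lost without DMSO replicate 2 (0.85, edgeR adjusted p = 0.0785) or replicate 1 of 0.1 µM THZ531 (0.86, 0.0789). So it was without nilotinib replicate 1 (0.85, 0.0739), or combination replicate 2 (0.93, 0.0616) or 3 (0.76, 0.0984). Between the lapatinib and nilotinib combinations edgeR called 0 lower and 0 higher (all genes 0.736% and 0.73%), with 1 member at an unadjusted p under 0.05 and DESeq2 counts of 0 and 0. Folds between the combinations ran from −0.20 for CHD9 to 0.38 for KDM6B.

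A higher dose of THZ531 and a combination with the lower dose can lower the same genes to different depths, so the 2 were compared directly. Relative to 1 µM THZ531, the lapatinib combination had 6 members lower and 14 higher (all genes 16.1% and 12.8%; DESeq2 6 and 18), and the nilotinib combination had 5 lower and 15 higher (all genes 13% and 11.2%; DESeq2 5 and 17). The 14 became 9 without replicate 2 of 1 µM THZ531, and the 15 became 8 without that library or without replicate 2 or 3 of the nilotinib combination. With the groups compared alone the counts were 3 and 10 with lapatinib (all genes 8.26% and 7.64%) and 2 and 7 with nilotinib (all genes 6.29% and 6.28%). KAT6A stood furthest above 1 µM THZ531, by 1.12 ± 0.223 and 1.23 ± 0.223 (edgeR adjusted p = 0.000723 and 0.000352), on the library values given above. EZH2 was higher by 0.68 and 0.53 (edgeR adjusted p = 8.14e-05 and 0.000969), CHD2 by 0.76 and 0.74 (0.00296 and 0.00449), NSD3 by 0.59 and 0.70 (0.00284 and 0.000873) and KDM1A by 0.34 and 0.41 (0.000555 and 0.000121). Under mitochondrial scaling KDM1A was not called in either (0.20 and 0.33, edgeR adjusted p = 0.315 and 0.0926). EED, the H3K27me3-binding subunit of Polycomb repressive complex 2 and also picked after its values were seen, read 42.5, 40.1 and 42.5 in DMSO, 32.0, 33.9 and 31.8 in the lapatinib combination, 32.9, 35.8 and 32.1 in the nilotinib combination and 23.1, 16.1 and 25.2 at 1 µM THZ531. Both combinations lay below DMSO and 1 µM THZ531 lay below both, and EED was 0.60 and 0.64 higher in the combinations than at 1 µM THZ531 (edgeR adjusted p = 0.000249 and 0.00015).

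Other members were lower in the combinations than at 1 µM THZ531. PBRM1, picked after its values were seen, read 40.8, 41.0 and 39.9 in the lapatinib combination, 42.3, 42.6 and 45.9 in the nilotinib combination and 65.9, 66.7 and 56.3 at 1 µM THZ531, next to 72.6, 72.7 and 65.7 in DMSO. The combinations lay below all other libraries of that set and 1 µM THZ531 overlapped DMSO. PBRM1 differed by −0.63 ± 0.0713 and −0.53 ± 0.0712 (edgeR adjusted p = 2.3e-06 and 1.73e-05). Against DMSO at 1 µM THZ531 PBRM1 was not called (−0.16 ± 0.0708, edgeR adjusted p = 0.0505), but it was without DMSO replicate 3 (0.0261), lapatinib replicate 1 (0.0454), or treated replicate 1 (0.0366) or 2 (0.0263), with library size alone (−0.42, 4.56e-05) or mitochondrial scaling (−0.71, 2.5e-05). KDM5A was lower by 0.54 and 0.35 (edgeR adjusted p = 2.79e-05 and 0.0019), KDM4A by 0.46 and 0.58 (0.00209 and 0.000313) and SUZ12 by 0.41 and 0.38 (0.00135 and 0.00271). With the groups compared alone, the lapatinib call of KDM4A was lost (−0.43, edgeR adjusted p = 0.0908). So were the nilotinib calls of KDM5A (−0.32, 0.0724) and SUZ12 (−0.35, 0.0691). The lapatinib and nilotinib calls of NSD1 were lost as well (−0.36 and −0.33, 0.0511 and 0.0773). These folds stayed near those of the fit of all groups. NSD1 was lower by 0.38 and 0.36 (edgeR adjusted p = 0.00642 and 0.011), the nilotinib call being lost without replicate 1 of that combination (0.0541) or of 1 µM THZ531 (0.0552). The plot of combinations against 1 µM THZ531 gives all members called in either comparison.

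**Figure D5:**
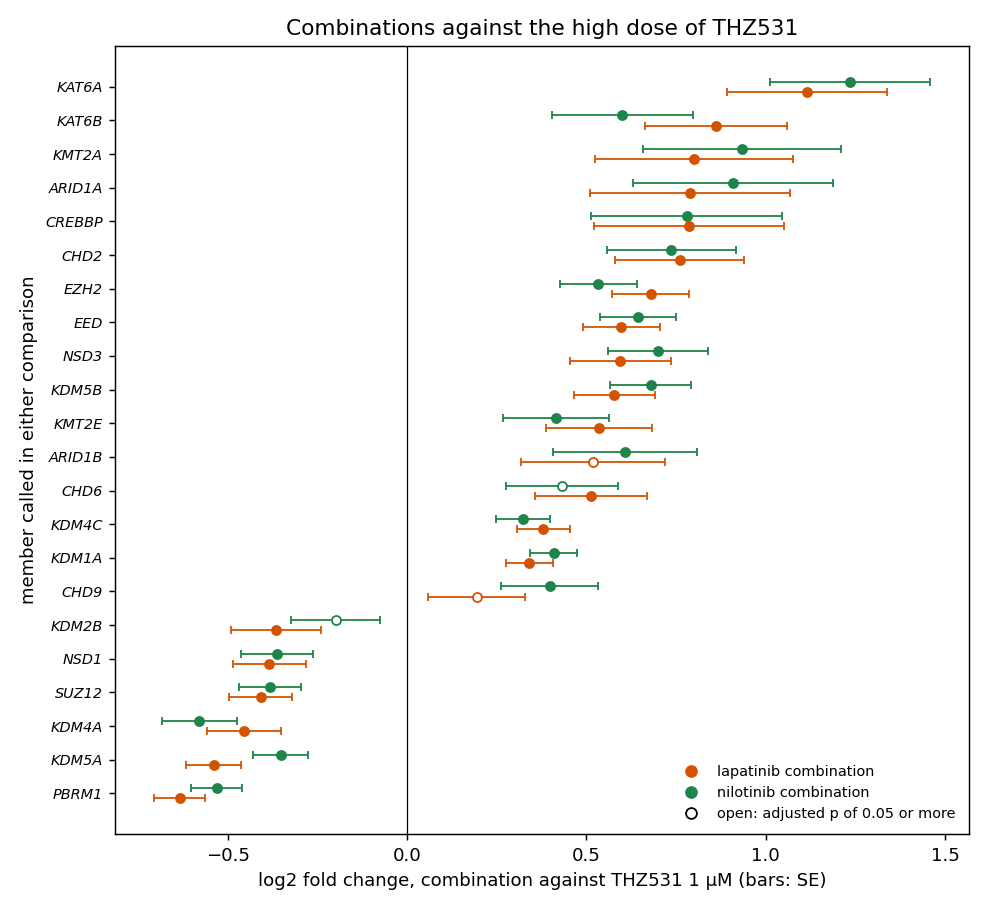
Log2 fold change (± standard error) of each combination relative to 1 µM THZ531, for the 22 members called in either comparison. Open symbols have an adjusted p of 0.05 or more.

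A wider list of 147 other chromatin genes, 143 of them tested, was counted in the same way. In the lapatinib combination 69 (48.3%) were lower and 39 (27.3%) higher (all genes 37.8% and 34.3%, DESeq2 66 and 44). In the nilotinib combination the counts were 64 (44.8%) and 46 (32.2%) (all genes 37.3% and 33.7%, DESeq2 62 and 48). At 1 µM THZ531 they were 71 (49.7%) and 40 (28%) (all genes 36.8% and 33.1%, DESeq2 69 and 42). The medians of this wider list were −0.208, −0.118 and −0.293, where the listed members had −0.548, −0.511 and −0.936. The lower dose of THZ531 gave 4 lower and 3 higher (all genes 4.31% and 1.78%; DESeq2 6 and 7). With lapatinib and with nilotinib edgeR called 0 and 0 in each direction, with 7 and 8 at an unadjusted p under 0.05 and 0 DESeq2 calls. The ends of this list, picked after their values were seen, were the demethylase KDM8 at −3.30, −3.36 and −2.46 (edgeR adjusted p = 9.62e-09, 8.4e-09 and 2.53e-07) and the INO80 subunit INO80B at 2.55, 1.67 and 1.56 (edgeR adjusted p = 0.000396, 0.0164 and 0.0254). KMT5B, which dimethylates H4K20, rose by 1.68, 1.62 and 1.04, and by 0.73 at 0.1 µM THZ531 (edgeR adjusted p = 8.1e-11, 1.46e-10, 9.7e-08 and 0.000641).

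RNA level is not protein or histone-mark level, and in bulk RNA fewer cells of a kind and less RNA per cell cannot be told apart. Counts per gene do not separate full-length RNA from RNA ended early in an intron. The study names SMARCA4 among genes with such intronic polyadenylation. Whether members not called here carry it was not tested. The libraries carry no strand, so reads of overlapping genes, such as CHD3 with NAA38, NSD3 with DDHD2, KDM1A with LUZP1 and KDM4A with its antisense RNA, cannot be told apart.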

How the data were processed

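Hs578T cells in 7 groups of 3 were profiled by RNA-seq of polyA-selected, unstranded libraries with 100-base paired-end reads. Per the submitters' processing notes, the authors aligned reads to GRCh38 with HISAT2 2.1.0 and made the deposited counts per gene with featureCounts; the notes name DESeq2 for their own tests. Here the counts (97612207 to 112229052 per library) were filtered with filterByExpr, scaled by TMM and fitted with 1 mean per group in edgeR 4.0.16 (R 4.3.3, limma 3.58.1), using the quasi-likelihood test with Benjamini-Hochberg adjustment over 16036 genes in 11 comparisons; an adjusted p under 0.05 is called. Chi-square per degree of freedom between replicates ran from 6.4 to 110. DESeq2 1.42.0, other scalings and filters, a replicate block, counts multiplied by 0.5, fits of only the groups compared, and leaving out each library were tried. Both edgeR and DESeq2 were tested on simulated data. The lowest and highest member of each role, by mean fold over the 3 strong treatments, are given with library values; other members, and the ends of the wider list, were picked after their values were seen. Members, roles, the 18 paralogue pairs and the list of 147 other chromatin genes were chosen with earlier results of these data known. Paralogue ratios used a pseudocount of 0.5 and exact permutation tests. Tables and plots were made with Python 3.11.15, pandas 2.3.3 and matplotlib 3.10.9.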

Additional observations from a re-analysis of the deposited data

Results flagged for a closer look

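By the interaction test of edgeR, 28 members responded to 0.1 µM THZ531 with lapatinib by more or less than the sum of the single treatments, and 29 did so with nilotinib. Of all tested genes 60.3% and 56.8% did so, so only the members' totals are near those of all genes. With lapatinib 43.1% of members were lower and 11.8% higher, against 32% and 28.2% of all genes. With nilotinib the shares were 43.1% and 13.7%, against 31.2% and 25.6%. Tested directly against 1 µM THZ531, 20 members differed in the lapatinib combination and 20 in the nilotinib combination (28.9% and 24.2% of all tested genes), with the adjusted p under 0.05 in each case. These 4 counts share DMSO, 0.1 µM THZ531 or 1 µM THZ531 libraries, so they are not independent of each other. Why members responded this way was not tested.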

How the results depend on the processing

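Scaling moved the counts of rises and also those of falls beyond 1. With mitochondrial mRNA scaling, members lower at 0.1 µM THZ531 went from 2 to 0. In the lapatinib combination 1 was higher, 32 were lower beyond 1 and 0 higher beyond 1; in the nilotinib combination the values were 1, 31 and 0. At 1 µM THZ531 0 were higher. The interaction with lapatinib was called lower for 35 and higher for 0, that with nilotinib for 34 and 0. Of folds called in either fit, signs turned in the lapatinib combination for EZH2 (−0.1485), NSD3 (−0.6217), KDM1A (−0.4234), KDM4C (−0.5783), KAT6A (−0.1584), ARID1B (−0.6538) and CHD6 (−0.3101). They turned in the nilotinib combination for EZH2 (−0.2349), NSD3 (−0.4626), KDM1A (−0.2925), KDM4C (−0.5736), KAT6B (−0.5324), SMARCA2 (−0.4582), ARID1B (−0.5092) and CHD3 (−0.00451), and at 1 µM THZ531 for SMARCA2 (−0.3651) and SMARCA4 (−0.439). With or without a call, 9, 10 and 3 members turned sign in these 3 treatments.

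With library size alone, 2 members were higher and 0 higher beyond 1 in the lapatinib combination (20.9% of all genes higher). In the nilotinib combination the counts were 1 and 0 (20.5% of all genes higher). The interactions were called higher for 2 and 2 (14.9% and 12.8% of all genes). With or without a call, 5, 7 and 2 members turned sign in the lapatinib combination, the nilotinib combination and 1 µM THZ531. Of folds called in either fit, KDM1A (−0.06283) and KDM4C (−0.2208) turned in the lapatinib combination and KDM4C (−0.2523) in the nilotinib combination. With upper-quartile scaling 11 were higher and 2 higher beyond 1 in the nilotinib combination, 4 and 2 at 1 µM THZ531, and the lapatinib interaction was called higher for 10. DESeq2 size factors gave 2 higher beyond 1 in the nilotinib combination. The DESeq2 Wald test gave 1 higher with lapatinib, 2 higher beyond 1 in the nilotinib combination and 2 higher at 1 µM THZ531. Requiring at least 10 counts in every library left 1 higher beyond 1 in the lapatinib combination. Counts multiplied by 0.5 and no filter changed none of these counts by as much.

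Fitting only the groups compared gave 3 lower and 1 higher at 0.1 µM THZ531 (6.97% and 3.41% of all genes). It gave 1 higher with lapatinib (0.598% of all genes) and 2 higher at 1 µM THZ531 (33.8%). Relative to 1 µM THZ531, 3 were then lower in the lapatinib combination, and 2 lower and 7 higher in the nilotinib combination. A setting added after the data were seen left out the 7 libraries farthest from their groups, which narrows the spread by selection, so its counts of calls are given only as a record. At 0.1 µM THZ531 1 was then lower and 3 higher (5.78% and 3.69% of all genes), and 2 were higher with lapatinib (0.809%). In the lapatinib combination 13 were higher (34.5% of all genes) and 4 higher beyond 1, in the nilotinib combination 14 (33.9%) and 3, and at 1 µM THZ531 6 (33%) and 2. Lower in the nilotinib combination than at 1 µM THZ531 were 8 (14.3% of all genes). The nilotinib interaction was called higher for 11 (27.2% of all genes). Ratios did not overlap DMSO for 12 pairs at 0.1 µM THZ531 and 10 with lapatinib. Ranges of 2 libraries part more easily than ranges of 3, and no share of all gene pairs is given for this setting. No conclusion is drawn from these pair counts. Folds turned sign without the 7 far libraries in 4, 3 and 4 members in the lapatinib combination, the nilotinib combination and 1 µM THZ531. Of those called in either fit, ARID1A turned to 0.2575 and 0.3934 in the lapatinib and nilotinib combinations and CREBBP to 0.3291 at 1 µM THZ531. With transcript length in place of gene span, the correlation with fold across members was 0.115, 0.124 and −0.0529 in the lapatinib combination, the nilotinib combination and 1 µM THZ531, the last with a turned sign.

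Leaving out each library in turn gave 0 to 2 members lower at 0.1 µM THZ531 and 0 to 1 higher with lapatinib, with no other call in the single treatments. Lower and higher ran from 28 to 34 and 4 to 8 in the lapatinib combination, 27 to 33 and 4 to 7 in the nilotinib combination, and 33 to 40 and 1 to 2 at 1 µM THZ531. Beyond 1 the ranges were 16 to 20 and 0 to 3, 15 to 20 and 0 to 3, and 20 to 26 and 0 to 1. Relative to 1 µM THZ531 they were 5 to 7 and 9 to 19 for the lapatinib combination and 4 to 7 and 8 to 19 for the nilotinib combination, and 0 throughout between the combinations. Interactions gave 21 to 25 and 5 to 8 with lapatinib, and 19 to 23 and 5 to 8 with nilotinib. Pairs without overlap ran from 7 to 10, 5 to 7, 6 to 9, 11 to 13, 13 to 16 and 11 to 13 over 0.1 µM THZ531, lapatinib, nilotinib, their combinations and 1 µM THZ531. Leaving out a library also makes ranges part more easily.

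A block for replicate number gave 33 lower and 8 higher in the lapatinib combination, 32 and 6 in the nilotinib combination and 38 and 1 at 1 µM THZ531. The labels give replicates of different groups only a shared number. The study speaks of 3 independent experiments for its RNA-seq samples, and whether a number marks an experiment is not stated. Deviations from group means over 10913 genes correlated above 0.1 in 35 of 63 same-number pairs of libraries, with a mean of 0.115 against −0.0541 for different numbers, and the cause was not tested. Outside leave-one-out, 3734 of the member folds kept their call or lack of one, 92 gained a call, 83 lost one and 23 turned sign with a call in either fit. Turns of sign without a call are not among the 23.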
